A study of Rattus norvegicus with 49 samples.

Results

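Semaphorin 3C (Sema3c) and the neuropilin receptor genes Nrp1 and Nrp2 were followed across adult life in the CA1 region of the rat hippocampus. The 3 genes were taken by gene symbol from the platform annotation, which gave 1 probe set for Sema3c, 2 for Nrp1 and 1 for Nrp2, 4 of the 15923 probe sets and 3 of 10411 genes on the array. Sema3c drew attention because its signal was lower at 23 than at 3 months in these same animals, and it was chosen on that difference, so its levels are given as a description with no test. The neuropilins were added as the receptors it is known to bind. Of the 4 probe sets, the 3 of Sema3c and Nrp1 had 100 units of signal or more on 5 or more arrays, the condition for being tested. The probe set of Nrp2 did so on 0 of 49 arrays.

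The tissue was CA1 of the left hippocampus from Fisher 344 rats, an inbred strain, with 9 animals each of 3, 6, 9 and 12 months and 13 of 23 months. No group carried a transgene or received a drug, and every rat had completed Morris water maze testing before the tissue was taken. One Affymetrix RAE 230A array was hybridized per rat, so the spread within an age is the spread between animals. The animals' maze scores are not analysed here.

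Class 3 semaphorins are secreted proteins that steer growing axons and, in the adult brain, act on dendrites and synapses. They bind a neuropilin on the target cell, and the neuropilin passes the signal on through a plexin. Semaphorin 3C can use either neuropilin 1 or neuropilin 2, while neuropilin 1 is best known as the receptor of semaphorin 3A and neuropilin 2 as that of semaphorin 3F. Neuropilins also serve blood vessels, where they are co-receptors for vascular endothelial growth factors.

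The arrays held strong signals of CA1 tissue. Array medians were between 209 and 225. The CA1 pyramidal cell marker Wfs1, a protein of the endoplasmic reticulum, had a mean log2 signal of 12.31 at 23 months and 12.46 at 3 months. Markers of other tissue varied between arrays. Transthyretin (Ttr), an abundant choroid plexus transcript, exceeded a signal of 2000 on 5 arrays, 1 of 23 months and 4 of 3 months, and reached at most 1123 on the others. Prox1, a transcription factor of dentate granule cells, ranged from 283 to 1067 at 23 months and from 274 to 1073 at 3 months. Hbb, a marker of red blood cells, ranged from 11.8 to 4388 at 23 months and from 15.4 to 210 at 3 months. Its medians were 17.3 and 18.9. As a measure of RNA integrity, the 3′ over 5′ control probe ratio (log2) averaged 0.31 ± 0.08 at 23 months and 0.26 ± 0.07 at 3 months for GAPDH (SD, n = 13 and 9), and 0.93 ± 0.15 at 23 months and 0.82 ± 0.13 at 3 months for beta-actin.

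The mean Sema3c signal was lower at each older age than at the one before. Its signal ran from 218 to 408 with a median of 328 at 3 months and from 178 to 363 with a median of 229 at 6 months. It ran from 183 to 301 with a median of 232 at 9 months and from 159 to 246 with a median of 182 at 12 months. At 23 months it ran from 137 to 238 with a median of 173. Neighbouring ages overlapped throughout, and the oldest and youngest groups overlapped through 1 animal. Of 13 rats of 23 months, 12 lay below the lowest rat of 3 months and 13 below the 3-month mean. How many of all genes separate these ages to this degree was not counted.

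The means were 318 ± 58.8, 246 ± 54.5, 237 ± 39.0, 196 ± 30.1 and 179 ± 26.0 at 3, 6, 9, 12 and 23 months (SD, n = 9, 9, 9, 9 and 13). The difference of 23 minus 3 months was −0.82 ± 0.10 on the log2 scale (SE), a 1.76-fold lower level, and those of 12, 9 and 6 minus 3 months were −0.69 ± 0.11, −0.42 ± 0.11 and −0.38 ± 0.11. These comparisons share the 3-month animals. By these estimates the log2 differences at 6, 9 and 12 months were 46%, 51% and 84% of that at 23 months. These shares have no interval, and their divisor is the difference for which Sema3c was chosen.

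Set against the spread between animals of an age (SD of 0.25 on the log2 scale), the steps from one age to the next are given here as a description. The steps of 6 minus 3 months (−0.38) and 12 minus 9 months (−0.27) exceeded 1 SD. The steps of 9 minus 6 months (−0.04) and 23 minus 12 months (−0.13) did not. The differences of 6 minus 3 and 23 minus 12 months had SEs of 0.11 and 0.10, and the sizes of the steps are not ranked. The spread itself was 0.28, 0.30, 0.24, 0.22 and 0.21 (SD of log2 signal) at 3, 6, 9, 12 and 23 months.

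Signals of other cell types differed between the same ages. Of all 8093 genes tested, 2.41% were called higher and 0.853% lower at 23 than at 3 months (limma adjusted p under 0.05). Of 9 tested microglial markers 7 were called higher at 23 than at 3 months, and of 8 astrocyte markers 3 were called higher. Signals summed over the 10 microglial markers with a probe set were 4925 to 9178 at 23 months and 3800.2 to 4191 at 3 months. Of 6 CA1 pyramidal markers 1 was called lower, the transcription factor gene Pou3f1 at −0.32 ± 0.08 (SE, limma adjusted p = 0.014), with summed signals of 11598 to 15474 at 23 months and 12735 to 15998 at 3 months. The part of these markers and of RNA quality in the Sema3c difference was not tested, and in bulk tissue fewer cells of a type and less RNA per cell cannot be told apart. The 8 interneuron markers, the 6 oligodendrocyte markers and the 8 endothelial markers gave 0, 1 and 0 calls. The 6 tested meningeal fibroblast markers gave 0 calls, with log2 differences of −0.43 to 0.07 and a median of −0.21. Their part in the Sema3c difference was not tested either. The log2 difference of Sema3c was also −0.82 without the 5 arrays of high Ttr, and −0.82 with log2 Ttr and Prox1 as covariates. At 3 months the 4 arrays of high Ttr had a median Sema3c signal of 305 and the other 5 a median of 328.

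**Figure D1:**
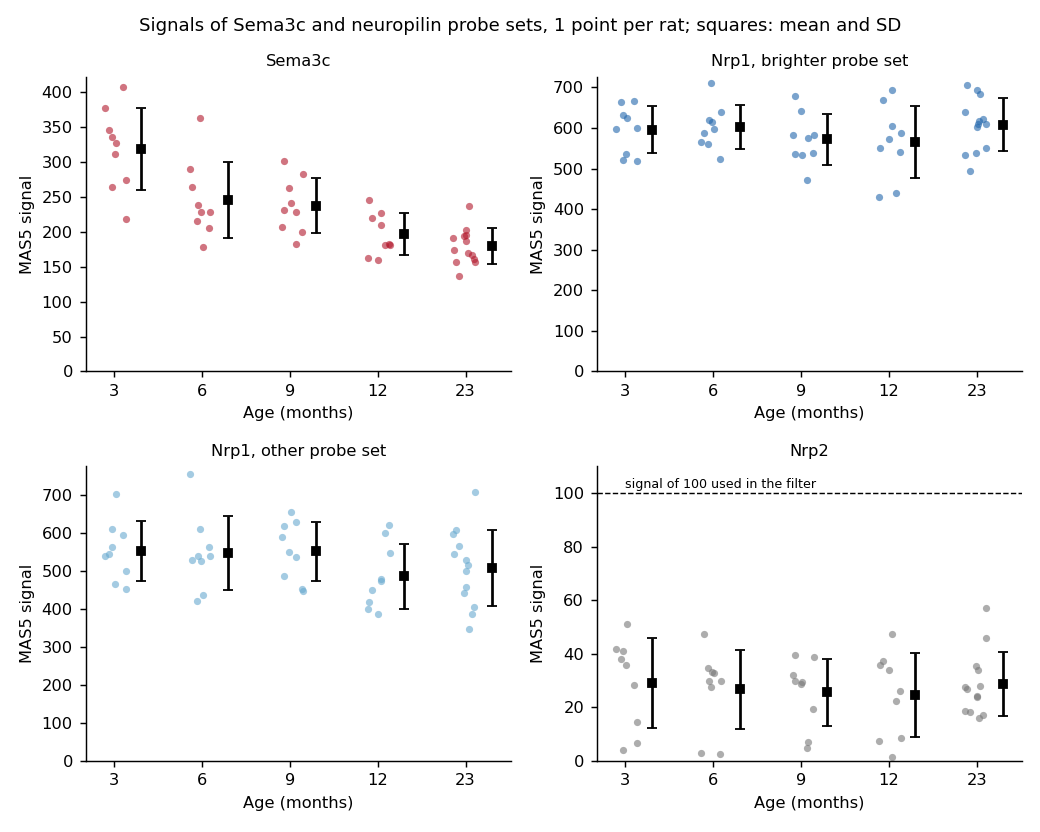
Signal of Sema3c, of both Nrp1 probe sets and of Nrp2 against age in months, each axis starting at 0, with 1 point per rat and a square with a bar for the mean and SD of an age (n = 9, 9, 9, 9 and 13). Sema3c means step down to 179 at 23 months, against 318 at 3 months. The age means of both Nrp1 probe sets stay between 485 and 608. Single rats range from 431 to 712 for the brighter Nrp1 probe set and from 347 to 754 for the other. Every Nrp2 value lies below the signal of 100 used in the filter.

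Nrp1, the receptor gene with measurable signal, was called in none of the 5 comparisons of ages nor by the F-test. By its brighter probe set the signal ran from 519 to 668 with a median of 600.4 at 3 months, from 525 to 712 with a median of 597 at 6 months and from 473 to 680.1 with a median of 575 at 9 months. It ran from 431 to 695 with a median of 572 at 12 months and from 494 to 707 with a median of 610.3 at 23 months. The ranges of all 5 ages overlapped, and 9 of 13 rats of 23 months were above and 4 below the 3-month mean. The means were 596 ± 58.0, 602 ± 53.9, 572 ± 61.8, 566 ± 89.6 and 608 ± 65.2 (SD).

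The log2 difference of Nrp1 at 23 minus 3 months was 0.03 ± 0.07 (SE, 95% interval −0.12 to 0.17, limma adjusted p = 0.918), and the moderated F-test over 5 ages gave an adjusted p of 0.943. Of all 8093 genes tested, 3.26% were called at 23 minus 3 months and 1.88% by the F-test. The differences of 12, 9 and 6 minus 3 months were −0.09, −0.06 and 0.02, and that of 23 minus 12 months was 0.11, with adjusted p of 0.831, 0.9996, 0.9999 and 0.723. The shares of all genes called in these comparisons were 0.222%, 0.0371%, 0.0124% and 0.358%.

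The other Nrp1 probe set had means of 551 ± 78.3, 546 ± 97.6, 551 ± 77.2, 485 ± 85.6 and 508 ± 100.5 at 3, 6, 9, 12 and 23 months (SD). Its range was 347 to 707 at 23 months and 451 to 702 at 3 months, and 9 of 13 old rats were below the 3-month mean. In a fit of every probe set its log2 difference was −0.13 ± 0.10 (SE, 95% interval −0.34 to 0.07, limma adjusted p = 0.595). Among 9541 probe sets in that fit 3.12% were called. Both Nrp1 probe sets therefore missed the threshold, with estimates of opposite sign. They also did not follow each other between animals: within ages their correlation was −0.06 over 49 rats, and which transcripts each one reads was not analysed here.

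Nrp2 was not measurable with this array in CA1. Its signal ran from 1.5 to 57.2 over the 49 arrays with a median of 28.7, and on 10 arrays it was under the floor of 16 set before taking logs. The medians were 35.8, 30.0, 29.4, 26.2 and 26.7 at 3, 6, 9, 12 and 23 months. The ranges of the 5 ages overlapped, and no fold change is given. Sema3a, the best known neuropilin 1 ligand, was likewise dim, with a highest signal of 16.6 on any array.

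The other genes of the pathway were taken from lists of ligands, receptors, co-receptors, processing enzymes and signalling proteins, and of other guidance systems. Of 106 listed genes 74 had a probe set, and 63 besides Sema3c were tested. At 23 minus 3 months 1 of the 63 was called higher (Sema3b) and 1 lower (Cdk5r1), or 2 in all. Of all genes tested 3.26% were called, 2.41% higher and 0.853% lower. Sema3b passed the signal filter only through animals of 12 and 23 months, the ages where its mean was highest. The count of pathway genes called was also 2 with no filter on signal, and 1 (Cdk5r1) with a signal of 200 required. An unadjusted p under 0.05 was found for 12 of the 63 pathway genes and for 1167 of all 8093 genes. The median log2 difference was −0.02 over the 63 genes and 0.00082 over all genes tested. The share of calls among the pathway genes was close to that of the whole array.

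Sema3b, the other class 3 semaphorin gene that could be tested, had a difference of opposite sign to that of Sema3c. Semaphorin 3B is a secreted ligand that also binds neuropilins. The signal of Sema3b ran from 30.2 to 62.8 with a median of 54.8 at 3 months, from 47.5 to 78.5 with a median of 71.0 at 6 months and from 37.4 to 86.1 with a median of 57.6 at 9 months. It ran from 50.3 to 107.4 with a median of 80.6 at 12 months and from 68.3 to 121.7 with a median of 88.0 at 23 months. Every rat of 23 months was above every rat of 3 months, and 8 of 9 rats of 12 months were. The share of all tested genes that separate these ages as fully was not counted.

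Sema3b rose by 0.89 ± 0.15 on the log2 scale at 23 minus 3 months (SE, 95% interval 0.59 to 1.19, limma adjusted p = 3.98e-05) and passed the F-test (adjusted p = 6.28e-04). The size of this change is uncertain, since every 3-month signal was under 64. At 12 minus 3 months it rose by 0.70 ± 0.16 (adjusted p = 0.038, with 0.222% of all genes called and 0.198% called higher), and its differences at 9 and 6 minus 3 months were 0.41 and 0.40 without passing (adjusted p = 0.9996 and 0.9999). These signals are dim: only 3 rats of 23 months and 2 of 12 months reached 100, so the gene entered the tests through animals of these 2 ages alone. In a fit with no filter on signal it was called as well, at 23 minus 3 months (adjusted p = 2.03e-05) and at 12 minus 3 months (adjusted p = 0.021). With signals under 64 set to 64 the difference was 0.49 at 23 minus 3 months, still called, and 0.33 at 12 minus 3 months, no longer called (adjusted p = 0.254). That floor put every 3-month rat at 64, with no spread, and left every 23-month rat above it. The call at 23 minus 3 months under this floor is therefore no separate support. The call at 12 minus 3 months also ended without any 1 of 9 arrays, 4 of them of 3 months (replicates 3, 5, 6 and 9) and 5 of 12 months (replicates 4 to 8), with adjusted p up to 0.114. It ended too under quantile normalization, without the 5 arrays of high Ttr and with Ttr and Prox1 as covariates (adjusted p = 0.096, 0.066 and 0.058).

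**Figure D2:**
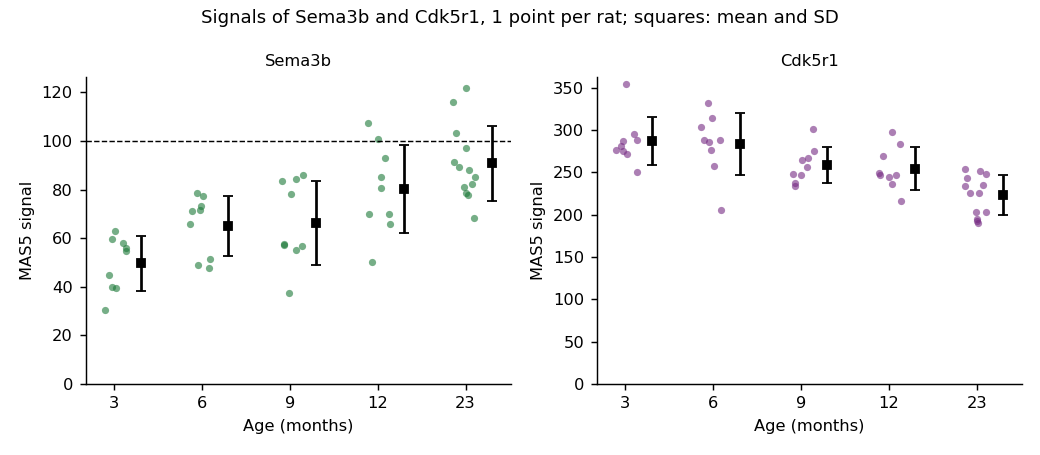
Signal of Sema3b and Cdk5r1 against age in months, each axis starting at 0, with 1 point per rat, squares and bars for the mean and SD, and, for Sema3b, a dashed line at the filter signal of 100. All 13 rats of 23 months lie above the 9 rats of 3 months for Sema3b, and 11 of 13 lie below them for Cdk5r1. The share of all tested genes that separate these ages to this degree was not counted. For Sema3b no rat of 3 months reached the filter signal of 100, so the gene was tested only because of older rats.

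Cdk5r1 encodes p35, the neuronal activator of the kinase Cdk5, which phosphorylates collapsin response mediator proteins downstream of semaphorin 3A. Its signal had means of 287 ± 28.3, 284 ± 36.4, 259 ± 21.0, 254 ± 25.1 and 223 ± 23.6 at 3, 6, 9, 12 and 23 months (SD). Of the rats of 23 months 11 of 13 lay below the lowest rat of 3 months, at 250.5. For this separation too the share over all tested genes was not counted. Cdk5r1 fell by 0.36 ± 0.07 on the log2 scale at 23 minus 3 months (SE, 95% interval −0.50 to −0.22, limma adjusted p = 3.17e-04) and passed the F-test (adjusted p = 0.0012). Its difference at 12 minus 3 months was −0.17 ± 0.08 (adjusted p = 0.537) and that at 23 minus 12 months −0.19 ± 0.07 (adjusted p = 0.367). The kinase gene Cdk5 itself had a difference of −0.06 ± 0.05 (adjusted p = 0.584).

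The remaining 17 tested genes for intracellular semaphorin signalling gave 0 calls at 23 minus 3 months by the brightest probe set of each gene. Crmp1, one of the collapsin response mediator genes, was at −0.12 ± 0.05 and Dpysl2, another, at 0.07 ± 0.04 (adjusted p = 0.180 and 0.396). Pak1, a kinase that carries Rac signals to the actin skeleton, was at −0.12 ± 0.05 (adjusted p = 0.184) where its brightest probe set was read. A second one for Pak1 was at −0.40 ± 0.09 and was called in the fit of every probe set (adjusted p = 0.0034). Rhoa and Rras, small GTPase genes, were at 0.21 ± 0.09 and 0.25 ± 0.11 without passing (adjusted p = 0.278 and 0.233).

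None of the 7 tested plexin genes was called. Plexins D1 and A2, which serve semaphorin 3C signalling in the developing heart and vessels of mice, had log2 differences of −0.12 ± 0.13 for Plxnd1 and 0.02 ± 0.12 for Plxna2 at 23 minus 3 months. Plxna1 and Plxna3, partners of neuropilins in axons, were at −0.12 ± 0.14 and −0.05 ± 0.07. Plxnc1 and Plxnb1 were at 0.01 ± 0.10 and 0.11 ± 0.06. Plxnb2, a receptor of class 4 semaphorins, was at 0.19 ± 0.07 (adjusted p = 0.114) and was called only with Ttr and Prox1 as covariates among the settings tried.

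The 9 tested genes of membrane-bound semaphorins lay between −0.14 and 0.17 with 0 calls. Sema6c and Sema4d, transmembrane ligands, had the smallest p among them, with log2 differences of 0.17 ± 0.11 and −0.11 ± 0.07 (adjusted p = 0.516 and 0.537). Vegfa, the growth factor that binds neuropilin 1, was at −0.02 ± 0.08. Among the 5 tested genes of that family the smallest p belonged to Pgf (0.31 ± 0.16, adjusted p = 0.372) and Vegfb (0.21 ± 0.11, adjusted p = 0.374), and 0 were called.

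Co-receptor, processing and other guidance genes gave 0 calls as well. Cntn2, an axonal adhesion protein, was at 0.26 ± 0.11 and L1cam, the co-receptor of neuropilin 1, at −0.06 ± 0.06 (adjusted p = 0.233 and 0.703). The proprotein convertases that cut semaphorins to their active form included Furin at −0.01 ± 0.08, Pcsk6 at 0.16 ± 0.08 and Pcsk5 at 0.32 ± 0.22 (adjusted p = 0.977, 0.287 and 0.551). Of 13 netrin, slit and ephrin genes the smallest p belonged to Epha4 (−0.15 ± 0.06, adjusted p = 0.119) and Robo2 (−0.33 ± 0.13, adjusted p = 0.178). The median of those 13 genes was −0.14 and that of the 5 tested processing genes was 0.17, against 0.00082 over all genes. Differences between these medians were not tested.

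**Figure D3:**
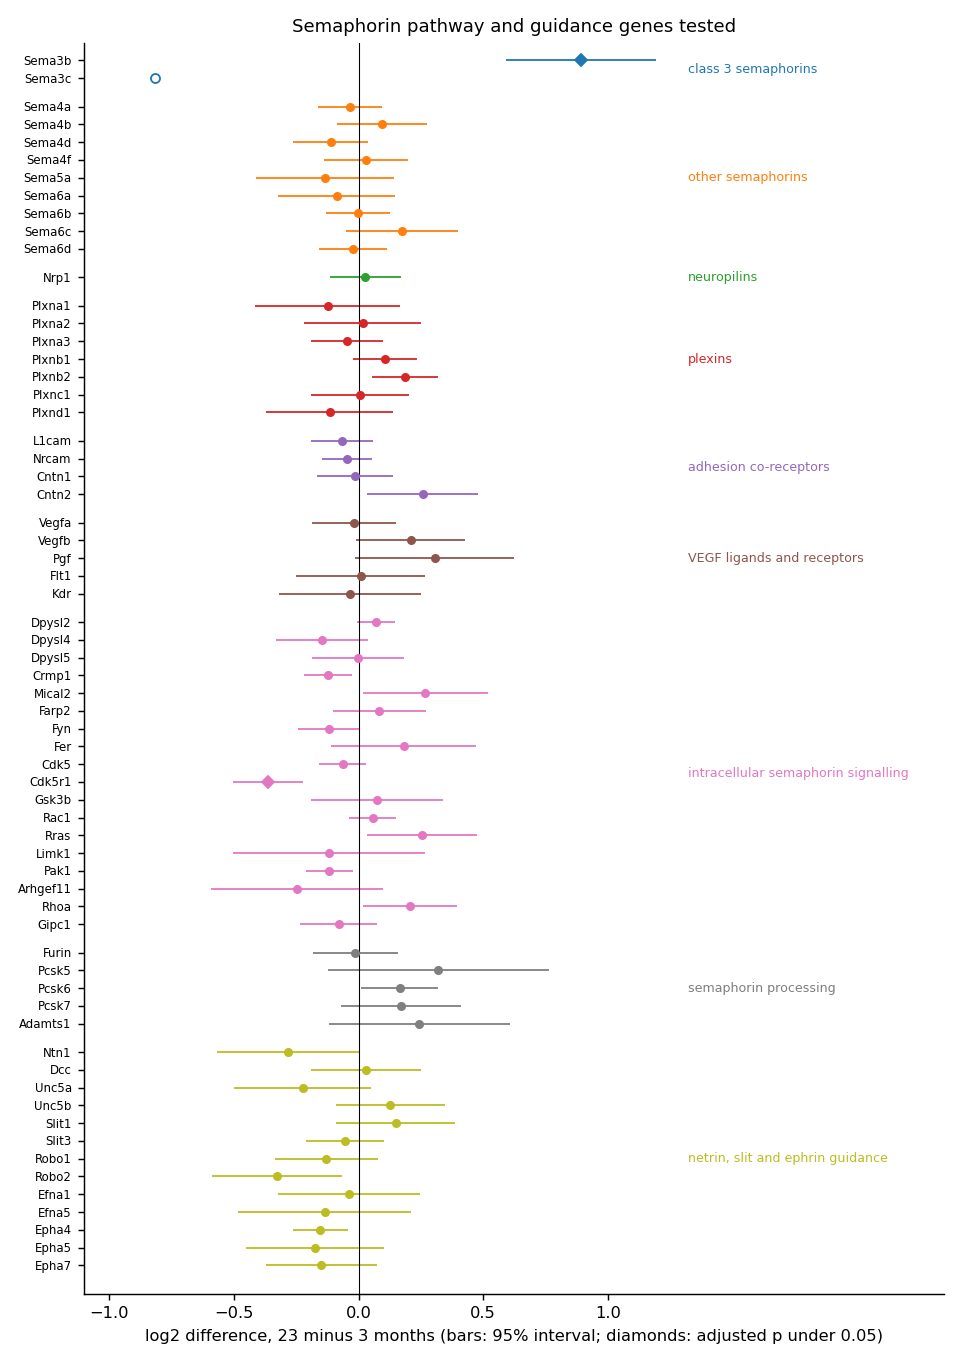
Log2 difference of 23 minus 3 months (horizontal axis) for each tested gene of the pathway and guidance lists, with limma 95% intervals as bars and diamonds for an adjusted p under 0.05. Sema3b at 0.89 and Cdk5r1 at −0.36 are the 2 diamonds, Sema3c at −0.82 is an open circle with no interval because it was chosen for this difference, and the other genes lie between −0.33 and 0.32.

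A separate question was whether the members vary together between animals of the same age, which does not draw on the age means. Within ages, rats with more Sema3c signal also had more Nrp1 signal by the brighter probe set. The correlation of log2 signals minus the age mean was r = 0.41 over 49 rats (two-sided permutation p = 0.0032 with 100000 resamples within ages, adjusted p = 0.0096 over 3 planned pairs) and Spearman's rho was 0.38 (permutation p = 0.012). It was positive in each age, with r of 0.26, 0.56, 0.36, 0.58 and 0.39 at 3, 6, 9, 12 and 23 months, and r was 0.39 without the 2 rats farthest from the median of Sema3c (permutation p = 0.0096). With the other Nrp1 probe set r was 0.09 (permutation p = 0.530), so the relation holds for 1 of the 2 Nrp1 probe sets. The permutation p-values, here and for the pairs below, treat the rats of an age as interchangeable. A structure shared by replicate number was not taken into account.

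The dim Nrp2 probe set gave weaker relations. Its correlation with Sema3c was r = 0.29 (two-sided permutation p = 0.057, adjusted p = 0.057 over 3 pairs; rho = 0.29, permutation p = 0.057), and r was 0.25 without the 2 farthest rats. It was 0.42, −0.10, 0.75, 0.50 and 0.01 within the 5 ages in order. Nrp1 with Nrp2 gave r = 0.35 (permutation p = 0.019, adjusted p = 0.029), but rho was 0.25 (permutation p = 0.094) and r was 0.30 without the 2 farthest rats (permutation p = 0.051). Within the 5 ages it was 0.56, 0.36, 0.40, 0.54 and −0.01. These relations rest on signals near the background.

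Prox1, a marker of dentate granule cells, moved with both genes inside an age. No other dentate marker was examined in this way. Its relations were added after the data were seen, and p-values are adjusted over all 5 relations. Sema3c with Prox1 gave r = 0.46 (two-sided permutation p = 0.0023, adjusted p = 0.0053) and rho = 0.50 (permutation p = 6.60e-04). It was 0.63, 0.34, 0.44, 0.69 and 0.30 within 3, 6, 9, 12 and 23 months, and 0.42 without the 2 farthest rats. Nrp1 with Prox1 gave r = 0.49 (permutation p = 2.40e-04, adjusted p = 0.0012) and rho = 0.49, with r of 0.45, 0.74, 0.38, 0.16 and 0.82 within the ages, and 0.56 without the 2 farthest rats. With the Prox1 slope removed from both genes, the correlation of Sema3c and Nrp1 was 0.25 (permutation p = 0.075). Prox1 itself had a log2 difference of 0.06 ± 0.21 at 23 minus 3 months (SE, limma adjusted p = 0.950), with means of 627 ± 220.2 at 23 months and 623 ± 274 at 3 months (SD).

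**Figure D4:**
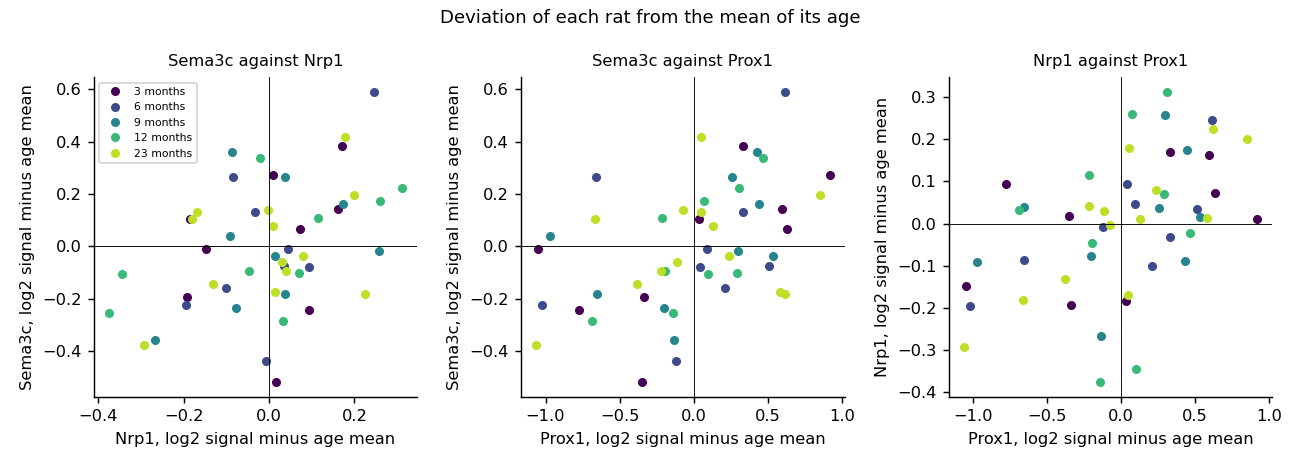
Log2 signal minus the age mean for Sema3c against Nrp1, Sema3c against Prox1 and Nrp1 against Prox1, with 1 point per rat coloured by age (49 rats). The clouds rise to the right in each panel, with r of 0.41, 0.46 and 0.49.

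Among the other 8092 tested genes, those that followed Sema3c most closely within ages were Ntf3, the neurotrophin-3 gene (r = 0.65 over 49 rats), Tiam1, an activator of Rac (0.60), Cplx2, a complexin of synaptic vesicle release (0.58), Trpc6, a cation channel (0.57), and Tle1, a transcriptional corepressor (0.57). The most opposed were Arhgdib, a gene abundant in blood cells (−0.61), Wdr1, an actin turnover protein (−0.57), and Ppp6r2, a phosphatase subunit (−0.55). The median over all genes was −0.01, and Prox1 stood at rank 52. These genes are the extremes of 8092 correlations, where high values also arise by chance, and none was tested. Tiam1 was dim, with a mean log2 signal of 6.46 at 3 months and 6.63 at 23 months. The log2 differences of the 5 genes that followed Sema3c lay between −0.17 (Ntf3) and 0.22 (Trpc6) at 23 minus 3 months, and none was called. Of the 3 opposed genes Arhgdib was called, higher by 0.40 ± 0.08 (SE, limma adjusted p = 6.97e-04), and the differences of Wdr1 and Ppp6r2 were −0.00083 and 0.032 without a call. For Nrp1 the closest were Htr1a, the serotonin 1A receptor gene (0.56), Mas1, a G protein-coupled receptor gene (0.55), and Clstn2, a calsyntenin gene of synapses (0.55).

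Likeness of the 5 age means picked out other genes. Among the 152 genes that passed the F-test, the means of Hmox2, the constitutive heme oxygenase, F2r, the thrombin receptor, and Vmp1, a membrane protein of autophagy, were closest to those of Sema3c, each with r of 0.99 over 5 ages. Their log2 differences at 23 minus 3 months were −0.27 ± 0.06, −0.39 ± 0.07 and −0.37 ± 0.09 (SE), each smaller than that of Sema3c. A correlation over 5 means of genes that all declined is a description of their shape only.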

How the data were processed

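The authors deposited 1 linear intensity per probe set and array. MAS5 made them, per the submitters' processing notes, and each array was brought to a target intensity of 500, per the series' design text. The MAS5 version is not given in the sources used here, and presence calls were not used here. The design text gives the oldest group 2 different ages, and the 23 months of the labels were used. Symbols came from the platform annotation (12783 probe sets with 1 symbol) and were matched by Entrez ID to the RefSeq gene table of assembly GRCr8 for 12748 of them. The brightest probe set stood for a gene, signals under 16 were set to 16, and 8093 of 10411 genes reached 100 on at least 5 arrays.

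All 49 arrays were fitted with a mean per age in limma 3.58.1 (R 4.3.3, variance trend, Benjamini-Hochberg adjustment over all genes, threshold 0.05). Fold changes and SEs are on the log2 scale, and the number of arrays limits the precision. Nrp2 was planned for testing but did not pass the signal filter. Data were simulated for 8093 genes with independent normal noise at each gene's mean and within-age spread. At 23 minus 3 months limma found 24, 46, 49 and 50 of 50 genes given log2 changes of 0.25, 0.5, 1 and 2. Of its 174 calls 5 were false. These data held no relation between genes or between arrays, unlike the real ones. The members and lists were chosen with earlier results of these data known. Genes were named by rule: the members, every listed gene called, tested class 3 semaphorins and plexins, the 2 of smallest p of lists without a call, and the genes most like Sema3c and Nrp1. The genes most like Nrp2 were not sought, since it was not tested. The relations with Prox1, the removal of Prox1 and the other Nrp1 probe set were added after seeing the data. Cdk5, Furin, Vegfa, Crmp1, Dpysl2, Pak1, Rhoa, Rras, Sema3a and Wfs1 were named outside the rule, after their values were seen.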

Additional observations from a re-analysis of the deposited data

Results flagged for a closer look

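One value stood far from the others of its age, among 24 groups of 9 rats checked over Sema3c, Nrp1, Nrp2, Sema3b and Cdk5r1 (chance alone picks out about 1 in 20 such groups). Cdk5r1 had a signal of 354 in 3 months replicate 1, where the other 8 rats of that age lay between 250.5 and 295. Without that rat the log2 difference of Cdk5r1 at 23 minus 3 months was −0.32 (limma adjusted p = 0.0020), against −0.36 with it.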

How the results depend on the processing

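The log2 difference of Sema3c was −0.89 to −0.82 over 12 other settings, and that of Nrp1 was 0.0046 to 0.034 over 13 with no call. With a signal of 200 required, the count of pathway genes called was 1, because Sema3b was no longer tested. The correlation of Sema3c with Nrp1 was 0.25 with Prox1 removed from both and 0.094 with the other Nrp1 probe set. That of Sema3c with Nrp2 was 0.33 without the 5 arrays of high Ttr (permutation p = 0.038), and that of Nrp1 with Nrp2 was 0.25 by Spearman and 0.30 without the 2 farthest rats. The count over all genes was 173 without those 5 arrays, against 264. Leaving out 1 array at a time gave −0.88 to −0.77 for the log2 difference of Sema3c, 0.0035 to 0.052 for Nrp1, 0.809 to 0.999 for the adjusted p of the Nrp1 F-test, and 2 to 3 pathway genes called (3 without 23 months replicate 6, where Pak1 was called). The correlations ranged over 0.36 to 0.45 for Sema3c with Nrp1, 0.23 to 0.34 for Sema3c with Nrp2 (permutation p under 0.05 without any 1 of 13 arrays), and 0.30 to 0.41 for Nrp1 with Nrp2. They ranged over 0.42 to 0.51 for Sema3c with Prox1 and 0.44 to 0.53 for Nrp1 with Prox1.

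Same-numbered rats of different ages had correlations of −0.13 to 0.36 between their deviations from the age means, with a median of 0.055 and 33 of 86 over 0.1. Rats of different number had a median of −0.0097, with 113 of 868 over 0.1. This difference was not tested. The labels give no shared source for rats of the same number, and the block was not taken into the reported fit. Whether such rats shared a source was not tested. The within-age correlations were not run with such a block. Their permutation p-values treat the rats of an age as interchangeable, which a structure shared by number would not allow. With the replicate number as a block, the log2 difference was −0.87 for Sema3c and 0.0046 for Nrp1 (limma adjusted p = 0.990), 2 pathway genes were called, and 269 genes in all. The call of Sema3b at 12 minus 3 months was lost under the block (adjusted p = 0.061). Alternatives that need a fit of Nrp2 were not run, and a floor of 64 left all its values at the floor. Signal near the background limits what can be said of Nrp2 and Sema3a.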
